A study of Mus musculus with 2 samples.

Results

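Interferon-stimulated genes were examined in mouse T cells that had been grown under T helper 17 (Th17) conditions with antigen presenting cells (APCs) that did or did not carry a transgene for OX40L, the ligand of the T cell receptor OX40. The genes were taken from a list of 35 symbols of type I and type II interferon targets. Membership rests on the symbol and on no threshold of the values, although the list was drawn up with earlier results of these data known. All 35 were found among the 13056 genes with an Entrez identifier in the deposited expression table. They comprise 29 antiviral genes and 6 immunity GTPases. Both groups held CD4+ T cells, cultured for 48 h, from mice of the C57BL/6 strain with a wild type genotype and an age of 6 to 8 weeks. The groups differed in the APCs alone, which were WT in one and OX40L-TG in the other. Each group had 1 library, and these are called the WT-APC and the OX40L-TG-APC library. What drives the OX40L transgene, which cells served as APCs and how many mice were pooled are not given in the sources used here.

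Type I interferons (IFN-alpha and IFN-beta) bind the receptor made of IFNAR1 and IFNAR2 and act through the kinases JAK1 and TYK2 to activate ISGF3, a transcription factor complex that contains STAT2 and IRF9. ISGF3 binds interferon-stimulated response elements (ISREs) near the start of antiviral genes. Type II interferon (IFN-gamma), a product of T helper 1 cells and natural killer cells, acts through JAK1 and JAK2 on genes that carry gamma-activated sequences (GAS). The guanylate-binding proteins and immunity-related GTPases are classical IFN-gamma targets that act on intracellular pathogens and their vacuoles. IFN-gamma is also known to restrain Th17 differentiation.

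Promoters of both the antiviral genes and the GTPases held interferon response cores. RefSeq promoters of GRCm38.p6, from 250 bases before to 50 bases after the start, were found for 27 of the 35 genes, with 34 promoters in all. An ISRE core, GAAANNGAAA on either strand, lay in 14 of the 34 promoters (41.2%), against 3.44% of all 32851 promoters. Counted by gene, it lay in 10 of 22 antiviral genes and in 4 of 5 GTPases. A GAS core, TTCNNNGAA, which reads alike on both strands, lay in 8 of the 34 promoters (23.5%), against 8.30% of all promoters. By gene, the GAS core lay in 7 of 22 antiviral genes and in 1 of 5 GTPases. Bst2, Oas1a and Igtp had both cores, and 8 genes had neither. A match of letters is a description and not evidence of binding. Windows around the ISRE core are printed for 4 genes that were higher in the OX40L-TG-APC library (Igtp, Oas3, Bst2 and Isg15), 2 that were lower (Gbp2 and Gbp3), 1 with nearly equal values (Irgm1) and 1 under 1 FPKM (Ifit1). Each reads 5′ to 3′ on the strand of the gene, and capitals mark the ISRE core, with overlapping copies merged.
Igtp, chr11:58199482-58199571, plus strand: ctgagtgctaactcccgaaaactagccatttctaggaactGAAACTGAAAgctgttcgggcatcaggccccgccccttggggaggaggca
Oas3, chr5:120777685-120777774, minus strand: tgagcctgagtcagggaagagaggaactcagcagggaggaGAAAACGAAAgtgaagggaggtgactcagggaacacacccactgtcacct
Bst2, chr8:71537553-71537642, minus strand: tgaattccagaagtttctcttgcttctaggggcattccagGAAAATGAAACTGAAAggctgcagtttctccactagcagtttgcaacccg
Isg15, chr4:156200847-156200936, minus strand: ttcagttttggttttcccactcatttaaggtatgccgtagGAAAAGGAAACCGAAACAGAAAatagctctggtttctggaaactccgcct
Gbp2, chr3:142620564-142620653, plus strand: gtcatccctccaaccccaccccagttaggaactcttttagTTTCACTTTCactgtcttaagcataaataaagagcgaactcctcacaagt
Gbp3, chr3:142559959-142560048, plus strand: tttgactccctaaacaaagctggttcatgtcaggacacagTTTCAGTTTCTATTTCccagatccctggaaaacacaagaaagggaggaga
Irgm1, chr11:48871401-48871490, minus strand: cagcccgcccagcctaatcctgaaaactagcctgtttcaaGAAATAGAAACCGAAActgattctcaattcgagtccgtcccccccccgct
Ifit1, chr19:34640745-34640834, plus strand: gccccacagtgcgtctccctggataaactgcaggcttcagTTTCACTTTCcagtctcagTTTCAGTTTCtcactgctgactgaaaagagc

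In these windows the core is a single copy in Igtp, Oas3 and Gbp2, 2 overlapping copies in Bst2, Gbp3 and Irgm1, 3 overlapping copies in Isg15 and 2 separate copies in Ifit1. It is read on the gene's own strand in Igtp, Oas3, Bst2, Isg15 and Irgm1 and on the opposite strand in Gbp2, Gbp3 and Ifit1. Its first base lies at -34 from the start in Igtp, at -59 in Gbp2 and at -75 in Oas3. Genes with the core thus stood on both sides of the comparison described next.

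The authors deposited expression as FPKM, a measure of fragments relative to transcript length and library size, so levels can be set side by side between genes. Change was computed as log2 of the OX40L-TG-APC FPKM + 1 over the WT-APC FPKM + 1, for genes with at least 1 FPKM in the higher library, and a gene was called at 2-fold. Ratios are plain FPKM ratios with 95% exact (Clopper-Pearson) intervals, from an estimated 24700000 fragments in the WT-APC and 28300000 in the OX40L-TG-APC library. These intervals cover counting error only. Of the FPKM values, 39.6% (WT-APC) and 37.3% (OX40L-TG-APC) have 7 significant digits and nearly all of those end in 5, as means of pairs of 6-digit numbers would. Whether each column averages a pair of runs or samples is not given in the sources used here, and if it does, the depths and intervals, which assume a single library, are rough. With 1 library per group there is no replicate check and no test, and every statement compares these libraries.

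The interferon-stimulated genes did not move in one direction. Of the 35, 24 reached 1 FPKM in at least 1 library, and the other 11, all antiviral effectors, were under 1 FPKM in both. Dhx58 alone was called higher (1 of 24, against 2.26% of all 10645 genes that reached 1 FPKM), and 0 were called lower, against 1.32% of all genes. The OX40L-TG-APC value was the larger for 13 of the 24 and the WT-APC value for 11. The median log2 change was 0.06, within a range of -0.85 to 1.25, and that of all genes was 0.11. Changes are to be read against this general shift. At a plain ratio of 1.5, 6 of the 24 (25.0%) were higher, against 10.4% of all genes, and 3 (12.5%) were lower, against 4.64%. The median distance from the median of all genes was 0.38 on the log2 scale for the 24 genes and 0.17 for all genes. Thus the centre of the list lay near that of all genes while single members lay farther from it on either side.

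**Figure D1:**
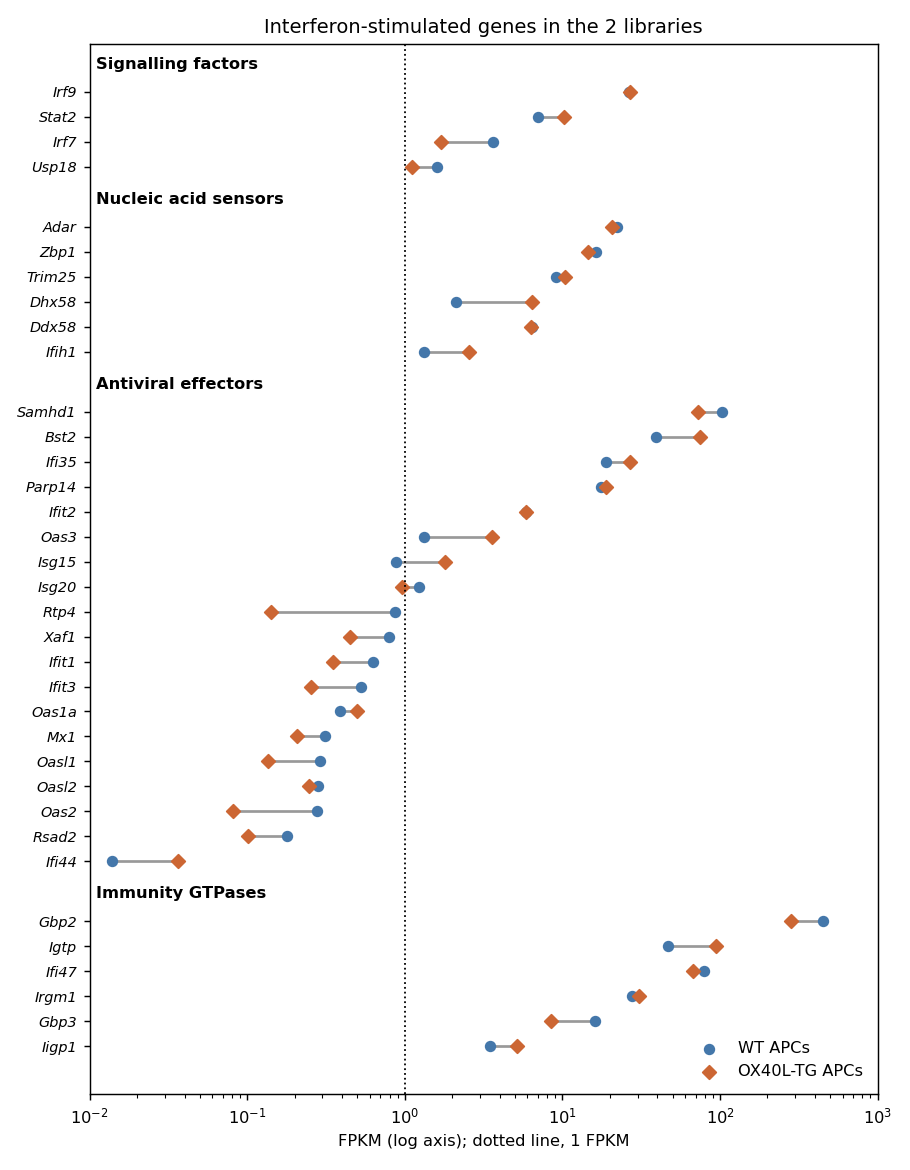
FPKM of the 35 interferon-stimulated genes in the WT-APC library (circles) and the OX40L-TG-APC library (diamonds) on a log axis, grouped by role and ordered by the larger value, with a dotted line at 1 FPKM. Gbp2 stands highest at 449 and 280 FPKM, and 11 effectors lie left of the line in both libraries.

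**Figure D2:**
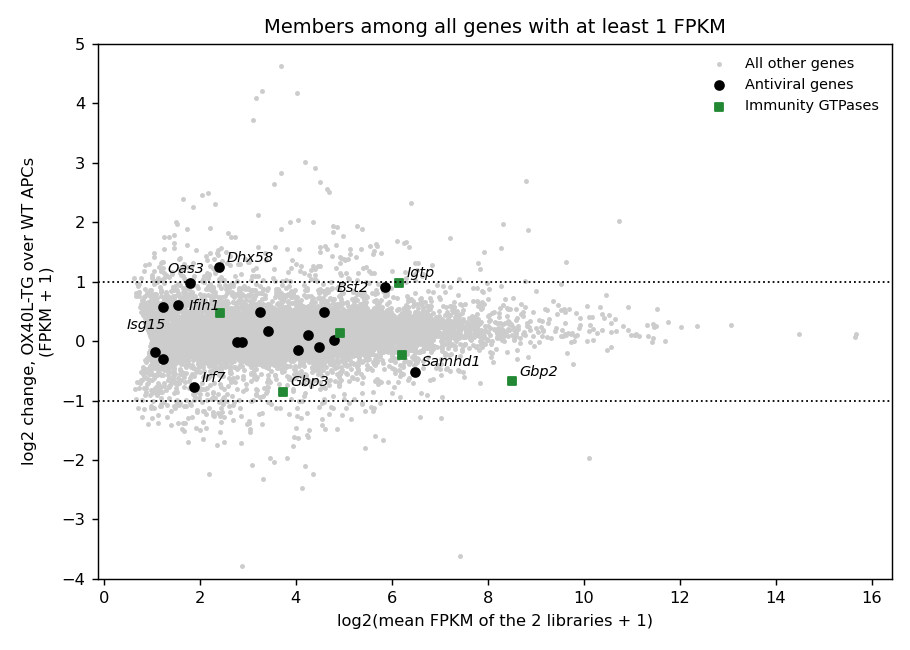
Log2 change (FPKM + 1) of the 24 members with at least 1 FPKM against log2 of the mean FPKM + 1, over all 10645 genes in grey, with dotted lines at 2-fold. Dhx58 lies above the upper line at 1.25, Igtp and Oas3 lie just under it at 0.98 and 0.97, and Gbp3 at -0.85 is the lowest member.

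The factors that carry the interferon signal went in different directions. Irf7, the transcription factor that amplifies type I interferon production, had 3.64 FPKM in the WT-APC and 1.70 in the OX40L-TG-APC library. Its OX40L-TG-APC value was 2.14-fold lower (interval 1.65 to 2.78), a log2 change of -0.78. Stat2, the ISGF3 subunit particular to interferon signalling by the type I and type III receptors, had 6.95 and 10.2 FPKM and was 1.46-fold higher (1.34 to 1.60). The DNA-binding ISGF3 subunit Irf9 had 26.6 and 27.0 FPKM, a ratio of 1.014 (0.949 to 1.08), and its log2 change of 0.02 turned negative when library totals, or the medians of well-expressed genes, were equalised. Usp18, which removes ISG15 from proteins and blocks IFNAR2 signalling, had 1.60 and 1.12 FPKM, and its interval for the ratio of 0.698 ran from 0.482 to 1.007. An assembled feature overlapping Usp18 and carrying the same Entrez identifier held a further 1.41 and 1.20 FPKM. Of the 4 factors, only Irf7 and Stat2 had intervals that excluded 1, and they lay on opposite sides. With the medians of well-expressed genes equalised, the intervals of Irf9 (0.868 to 0.993) and Usp18 (0.442 to 0.922) lay below 1 as well. The loci printed for Irf9 (with Psme2 and Rnf31) and Stat2 (with Apof) also hold other protein-coding genes.

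Among the sensors of foreign nucleic acid, the 3 RIG-I-like receptors differed from each other. Dhx58 (LGP2, Entrez gene 80861, chr11:100694884-100704271), which modulates the other RIG-I-like receptors, had 2.13 FPKM in the WT-APC and 6.42 in the OX40L-TG-APC library. It was 3.02-fold higher (2.47 to 3.71), with a log2 change of 1.25, the largest of all members. Its locus overlaps the annotated gene Gm38483, and whether counting used strand is not given in the sources used here. Ifih1 (MDA5, chr2:62595793-62646255), the receptor for long double-stranded RNA, had 1.32 and 2.54 FPKM and was 1.93-fold higher (1.58 to 2.35). Ddx58 (RIG-I), the receptor for RNA with 5′ triphosphates, had 6.39 and 6.35 FPKM, a ratio of 0.994 (0.891 to 1.11). With WT APCs Ddx58 was thus the highest of the 3 receptors by FPKM, and with OX40L-TG APCs Dhx58 stood level with it.

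The other sensors and regulators stood close to equality. Trim25, the ubiquitin ligase that acts in RIG-I signalling, had 9.12 and 10.4 FPKM, a ratio of 1.14 (1.06 to 1.23). Zbp1, a sensor of Z-form nucleic acid that can trigger cell death, had 16.2 and 14.6 FPKM, a ratio of 0.897 (0.796 to 1.0099). Adar, which edits double-stranded RNA and so limits MDA5 sensing, was the highest of the sensor group at 22.3 and 20.8 FPKM, a ratio of 0.933 (0.878 to 0.991). These differences were small beside those of Dhx58 and Ifih1. The locus printed for Adar also held Chrnb2, at 0.455 and 0.349 FPKM.

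Of the 19 antiviral effectors, 8 reached 1 FPKM. The highest were Samhd1, which depletes deoxynucleotides needed by retroviruses, and Bst2 (tetherin), which holds budding virus at the cell surface. Samhd1 had 103.6 FPKM in the WT-APC and 72.3 in the OX40L-TG-APC library and was 1.43-fold lower (1.39 to 1.48). Bst2 (chr8:71534259-71537437) had 39.4 and 74.9 FPKM and was 1.90-fold higher (1.75 to 2.07), a log2 change of 0.91. The order of these highest effectors was therefore reversed, with Bst2 the lower in the WT-APC library and the higher, by a small margin, in the OX40L-TG-APC library. Ifi35, a partner of the interferon-induced protein NMI, had 18.9 and 27.0 FPKM, a ratio of 1.43 (1.29 to 1.58). Parp14, a mono-ADP-ribosyltransferase, had 17.5 and 18.8 FPKM, and its log2 change of 0.09 turned negative when the median ratio or the totals were set equal.

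Lower effectors included some with larger ratios. Oas3 (Entrez gene 246727, chr5:120753098-120777659), one of the oligoadenylate synthetases that activate RNase L on double-stranded RNA, had 1.33 and 3.56 FPKM. It was 2.68-fold higher with OX40L-TG APCs (2.23 to 3.24), though its log2 change of 0.97 stayed under the call. Isg15 (chr4:156199424-156200818), the ubiquitin-like modifier, had 0.883 and 1.80 FPKM, a ratio of 2.04, with an interval of 1.12 to 3.88 that rests on about 16.5 and 38.6 fragments. Isg15 reached 1 FPKM through the OX40L-TG-APC library only, and Isg20, an exonuclease of single-stranded RNA, through the WT-APC library only, at 1.23 and 0.961 FPKM. Ifit2, which binds viral RNA, had 5.91 and 5.86 FPKM, a ratio of 0.992 (0.884 to 1.11).

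Many of the genes most used to score a type I interferon response were close to the floor of the measurement. The 11 effectors under 1 FPKM in both libraries were Ifit1, Ifit3, Mx1, Oas1a, Oas2, Oasl1, Oasl2, Rsad2, Rtp4, Xaf1 and Ifi44. The WT-APC value was the larger for 9 of these 11, and the exceptions were Oas1a and Ifi44. The matching share of all genes under 1 FPKM in both libraries was not computed, so this count is not read as a result. Rtp4, a chaperone-like protein, had 0.871 FPKM in the WT-APC and 0.141 in the OX40L-TG-APC library, about 29.4 and 5.47 fragments, a 6.16-fold lower value with an interval of 2.44 to 19.2. Oas2 had 0.277 and 0.0807 FPKM and was 3.44-fold lower (1.57 to 8.33). These ratios were singled out after the values were seen. The RNA-binding genes Ifit1 and Ifit3 had 0.625 and 0.348 FPKM and 0.527 and 0.253 FPKM, and were 1.79-fold lower (1.07 to 3.05) and 2.08-fold lower (1.00 to 4.53) with OX40L-TG APCs.

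The rest were lower still or differed by less than counting error. Xaf1, an antagonist of the apoptosis inhibitor XIAP, had 0.794 and 0.450 FPKM and was 1.77-fold lower (0.984 to 3.24). Oas1a had 0.388 and 0.5001, and the related Oasl2 had 0.282 and 0.246 FPKM. Oasl1 had 0.291 and 0.136 FPKM and was 2.15-fold lower (0.869 to 5.74). The dynamin-like GTPase gene Mx1, which blocks influenza virus in mice with an intact allele, had 0.311 and 0.207 FPKM, with no interval computed. Rsad2 (viperin), which makes a chain-terminating nucleotide, had 0.179 and 0.101 FPKM and was 1.77-fold lower (0.776 to 4.22). Ifi44 was the lowest member at 0.0138 and 0.0362 FPKM, about 0.993 and 2.98 fragments, and its ratio of 2.62 had an interval of 0.208 to 141. Copies limit some of these: 51.2% of the 50-base stretches of Ifit3 transcripts also occur in Ifit3b, and 57.6% of those of Oas1a occur in other genes, mainly Oas1g.

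The listed immunity GTPases had a far higher median level than the listed antiviral genes, and all 6 exceeded 1 FPKM in both libraries. Gbp2 (Entrez gene 14469, chr3:142620663-142638008), a guanylate-binding protein that coats pathogen vacuoles, had 449 FPKM in the WT-APC and 280 in the OX40L-TG-APC library. It was 1.60-fold lower (1.57 to 1.63), a log2 change of -0.68. Its neighbour Gbp3 (chr3:142560052-142573212) had 16.03 and 8.44 FPKM and was 1.90-fold lower (1.72 to 2.10), a log2 change of -0.85. Both guanylate-binding members were therefore lower with OX40L-TG APCs, and Gbp2 remained the highest member in each library.

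The immunity-related GTPases did not follow them. Igtp (Irgm3, Entrez gene 16145, chr11:58199556-58207592), a regulatory member that protects host membranes, had 46.9 and 93.8 FPKM and was 1.998-fold higher (1.90 to 2.10), a log2 change of 0.98. Irgm1, another regulatory member with a role in autophagy, had 27.7 and 30.6 FPKM, a ratio of 1.11 (1.03 to 1.18), and its sign turned when the library totals were set equal. Iigp1 (Irga6), an effector member that loads onto vacuoles, had 3.46 and 5.17 FPKM, a ratio of 1.49 (1.28 to 1.75). Ifi47 (Irgd), also an effector member, had 79.7 and 67.7 FPKM, a ratio of 0.849 (0.809 to 0.891), but its printed locus also holds Tgtp2 and other genes. The interval of every GTPase excluded 1, with 3 above and 3 below, although that of Irgm1 included 1 once the medians of well-expressed genes were equalised. Igtp shares 11.8% of its 50-base stretches with Irgm2, which limits how well their fragments can be separated.

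**Figure D3:**
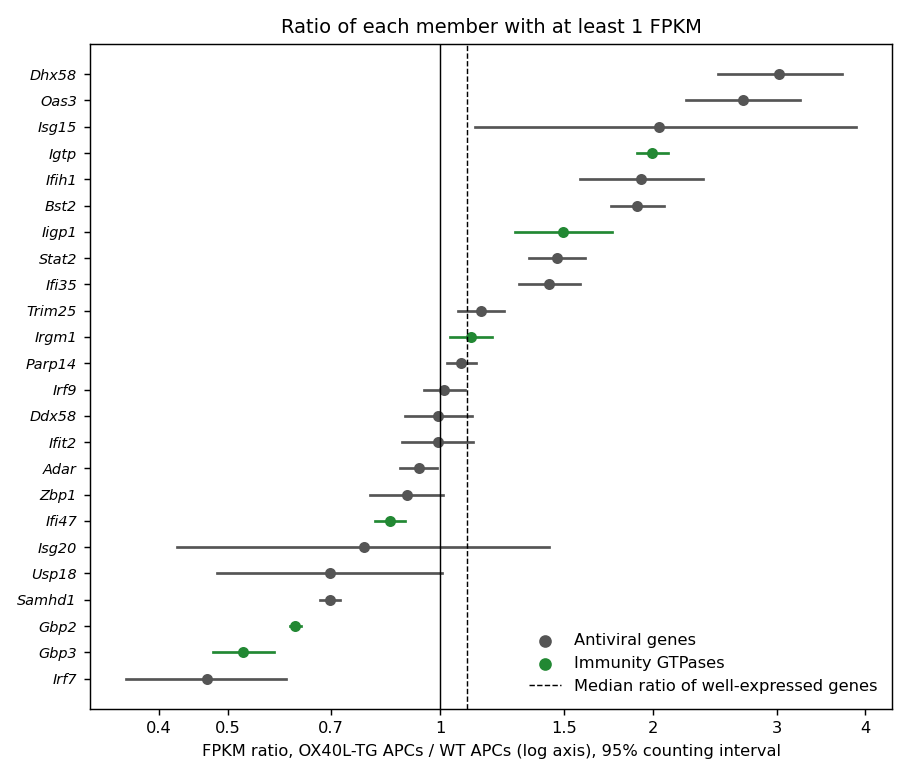
FPKM ratio, OX40L-TG-APC over WT-APC library, of the 24 members with at least 1 FPKM on a log axis, with 95% counting intervals. The solid line marks 1 and the dashed line the median ratio of 1.09 over 6038 well-expressed genes, and the GTPases, in green, lie on both sides, from Gbp3 at 0.526 to Igtp at 1.998.

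Set against each other, the listed antiviral genes and the listed immunity GTPases stood at very different levels. This order belongs to the list and was the reverse among the other interferon genes. There the 15 other GTPases found had medians of 2.36 (WT-APC) and 2.01 FPKM (OX40L-TG-APC). The 46 other antiviral targets found had 7.32 and 8.43. Among the members, the median FPKM in the WT-APC library was 1.33 over the 29 antiviral genes and 37.3 over the 6 GTPases. In the OX40L-TG-APC library it was 1.80 and 49.2. Of the 18 antiviral genes with at least 1 FPKM, 10 were higher and 8 lower with OX40L-TG APCs. Against the median change of all genes, 8 of them lay above and 10 below. Their median log2 change was 0.06. This sign was not stable: the antiviral median was -0.041 with the genes under 1 FPKM included, -0.065 and -0.11 when the medians of well-expressed genes or the library totals were equalised, and -0.0082 in loci with no other gene. Of the GTPases 3 were higher and 3 lower, with a median of -0.05. The GTPase median was 0.47 in loci with no other annotated gene, 0.14 without Ifi47 alone, an alternative chosen after seeing the data, and -0.17 and -0.22 under the 2 scalings. The value of 0.47 leaves out Gbp2, Gbp3 and Ifi47, the 3 GTPases that were lower, so its sign was fixed by that choice of loci. Of these 18 antiviral genes 5 were at least 1.5-fold higher and 1 at least 1.5-fold lower, and of the 6 GTPases 1 and 2. Among all genes 10.4% were higher and 4.64% lower by this ratio. One of the 5 is Isg15, which reached 1 FPKM through the OX40L-TG-APC library only. The 11 antiviral genes under 1 FPKM are not in these counts. The WT-APC value was the larger for 9 of them, with no share over all genes under 1 FPKM computed. The antiviral genes summed to 290 FPKM in the WT-APC and 309 in the OX40L-TG-APC library, and the GTPases to 623 and 486. Gbp2 alone made up 72.1% and 57.7% of the GTPase sum, and without it the sum was 174 and 206. The GTPase total was thus lower with OX40L-TG APCs when Gbp2 was counted and higher when it was not.

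The members lie in gene families clustered in the genome, and neighbours differed in direction. On chromosome 3, Gbp2 and Gbp3 were lower in the OX40L-TG-APC library, whereas the neighbouring Gbp5, which takes part in inflammasome activation, had 18.45 FPKM with WT and 21.5 with OX40L-TG APCs. Gbp7 had 3.48 and 3.66 FPKM, and Gbp2b, next to Gbp2, had 0.186 and 0.112. On chromosome 11, Igtp and the adjacent Irgm2, a further regulatory member, were both higher, and Irgm2 had 8.44 and 12.0 FPKM. The ratio of Gbp2 to Igtp was 9.57 in the WT-APC and 2.99 in the OX40L-TG-APC library.

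The oligoadenylate synthetases on chromosome 5 also differed in direction, at lower levels. Oas3 exceeded its neighbour Oas2 by a ratio of 4.79 in the WT-APC and 44.2 in the OX40L-TG-APC library, although the Oas2 value rests on about 26.8 and 8.95 fragments. Oas1c and Oas1b, which lie beside Oas3, had 1.56 and 1.55 FPKM and 2.27 and 2.04 FPKM. On chromosome 19, Ifit2 was nearly equal between libraries, while Ifit3, Ifit1 and the related Ifit1bl1 (0.631 and 0.226 FPKM) were lower with OX40L-TG APCs. Ifit3b had 0.206 FPKM with WT APCs and was listed at 0 with OX40L-TG APCs.

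**Figure D4:**
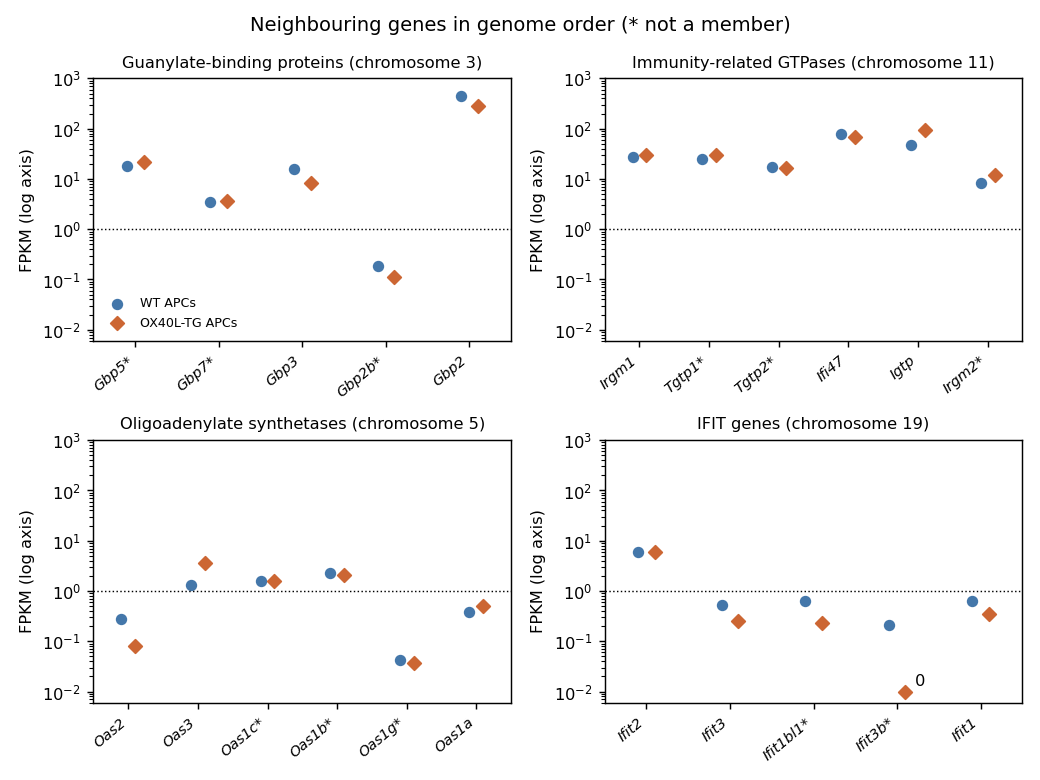
FPKM on a log axis of genes of 4 families, each in genome order, in the WT-APC (circles) and OX40L-TG-APC library (diamonds). Asterisks mark genes outside the list, a dotted line marks 1 FPKM, and the value of 0 for Ifit3b is drawn at the bottom. On chromosome 11 the genes are not all neighbours: Irgm1 starts at 48865249 and Ifi47 at 49037660, but Igtp at 58199556. Gbp2 and Gbp3 are lower while Gbp5 is higher, and Oas3 is higher while Oas2 is lower.

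The rest of the interferon pathway was read from lists of 113 further genes, of which 93 were found and 76 reached 1 FPKM. Of these 76, 2 were called higher, 2 lower and 72 neither, with a median log2 change of 0.07. Among all genes 2.26% were called higher and 1.32% lower, so these few calls are not read as a result about the pathway. Among 17 interferon ligand genes only Ifng was found, at 1.46 FPKM in the WT-APC and 1.78 in the OX40L-TG-APC library, a ratio of 1.22 with an interval of 0.813 to 1.84. The other 16, the type I and type III genes, were not in the table used. Of the 8 receptor and JAK genes that reached 1 FPKM none was called, and their median log2 change was 0.14, near that of all genes.

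Both interferon receptors were detected. Ifnar1 had 11.4 and 11.7 FPKM and Ifnar2 21.8 and 29.4, a ratio for Ifnar2 of 1.35 (1.26 to 1.45). Ifngr1 had 52.6 and 66.2 FPKM, a ratio of 1.26 (1.20 to 1.32), and Ifngr2 had 30.7 and 31.6. The kinases had 74.5 and 67.2 FPKM for Jak1, 75.6 and 92.9 for Jak2, and 14.8 and 16.7 for Tyk2. Of these 7 genes, Jak1 alone was lower in the OX40L-TG-APC library. Of the 8 receptor and JAK genes that reached 1 FPKM, 4 lay above the median change of all genes and 4 below.

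Of the 12 STAT, IRF and feedback genes that act downstream, 8 were higher and 4 lower in the OX40L-TG-APC library. Against the median change of all genes, 6 lay above and 6 below. Irf1, an early interferon target that is itself a transcription factor, had 55.3 and 68.8 FPKM, a ratio of 1.24 (1.19 to 1.31), and Socs1, the feedback inhibitor of JAKs, had 75.2 and 97.1 FPKM. Irf8, a factor of the same family known for its role in myeloid and B cells and also expressed in T cells, had 28.4 and 64.1 FPKM and was called higher, with a ratio of 2.26 (2.13 to 2.39). These 12 genes had a median log2 change of 0.15, and the 7 adaptors of nucleic acid sensing one of -0.10 with none called.

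Other antiviral targets and GTPases gave the remaining calls. Ifitm2, a membrane protein that restricts virus entry, had 22.1 and 69.2 FPKM and was 3.13-fold higher (2.79 to 3.53), whereas its relative Ifitm1 had 8.24 and 2.66 FPKM and was 3.10-fold lower (2.26 to 4.29). The authors' table prints a shared locus for both, so their separation depends on the authors' assignment of fragments. Slfn1, a Schlafen gene linked to T cell quiescence, had 35.1 and 12.0 FPKM and was 2.94-fold lower (2.68 to 3.23). Eif2ak2 (PKR), the kinase that halts translation on double-stranded RNA, had 6.41 and 8.58 FPKM. Of 37 such antiviral targets 1 was called higher and 2 lower, against 2.26% and 1.32% of all genes, with a median log2 change of 0.05. Of 11 further GTPases none was called and 8 were higher, with a median of 0.26, while 7 lay above the median change of all genes. Those higher included Gbp4 at 2.82 and 3.78 FPKM and Tgtp1 at 25.0 and 30.2 FPKM. Tgtp2, at 17.6 and 16.2 FPKM, was lower.

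The authors' deposited table of their own comparison lists 398 genes, 3.05% of all genes with an Entrez identifier, and it holds 3 of the 35 members (8.57%). In the authors' deposited table Dhx58 has a log2 ratio of 1.63 with a p-value of 0.0093. For Oas3 the authors' deposited table gives 1.46 with a p-value of 0.0136, and for Igtp it gives 1.03 with a p-value of 0.00705. Irf8 has 1.21 with a p-value of 0.00235 and Slfn1 has -1.52 with a p-value of 0.00065 in the authors' deposited table. Ifitm2 and Ifitm1, which were called here, are not listed in it, nor are the members Gbp2, Gbp3 and Irf7. The 3 members, Dhx58, Oas3 and Igtp, are all on the higher side. The authors' log2 ratios are not on the log2 scale of FPKM + 1 used here, on which these 3 changed by 1.25, 0.97 and 0.98. They also differ from the plain FPKM ratios used here. The plain ratio of Igtp, 1.998, was just under 2-fold, while the authors' log2 ratio of 1.03 is just above 2-fold. The authors' p-values come from 1 library per group and cannot cover the spread between cultures.

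Most markers of cells other than T cells had lower levels in the OX40L-TG-APC library, and several interferon-stimulated genes are also expressed by such cells. Of 13 B cell markers found, 11 reached 1 FPKM, all 11 were lower and 5 were called lower, and their summed FPKM was 71.1 in the WT-APC and 32.7 in the OX40L-TG-APC library. The monocyte and macrophage markers summed to 19.6 and 8.73 FPKM, with 3 of the 6 that reached 1 FPKM called lower and Cd68 slightly higher, at 2.25 and 2.44 FPKM. The dendritic cell markers summed to 107 and 71.2 FPKM, with 3 of 5 called lower and Batf3, which activated T cells also express, called higher. Zbtb46, under 1 FPKM, was also higher, at 0.788 and 0.934. Most of these sums lay in H2-Aa (58.8 and 25.5 FPKM), H2-Eb1 (29.6 and 13.1) and Batf3 (2.18 and 21.5). H2-Aa and H2-Eb1 are among the 3 called lower. The sums thus rest on few genes and are not a measure of dendritic cells alone. Clec9a, Cd209a and Siglech were listed at 0 in at least 1 library. All 14 T cell markers found exceeded 1 FPKM, none was called, and they summed to 2816 and 3049 FPKM, which fits the labelled cell type. If the RNA includes cells other than T cells, fewer cells of a type and less RNA per cell cannot be told apart. Any part of such cells in the lower values of Irf7, Gbp2, Gbp3, Samhd1 and the low effectors was not tested.

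**Figure D5:**
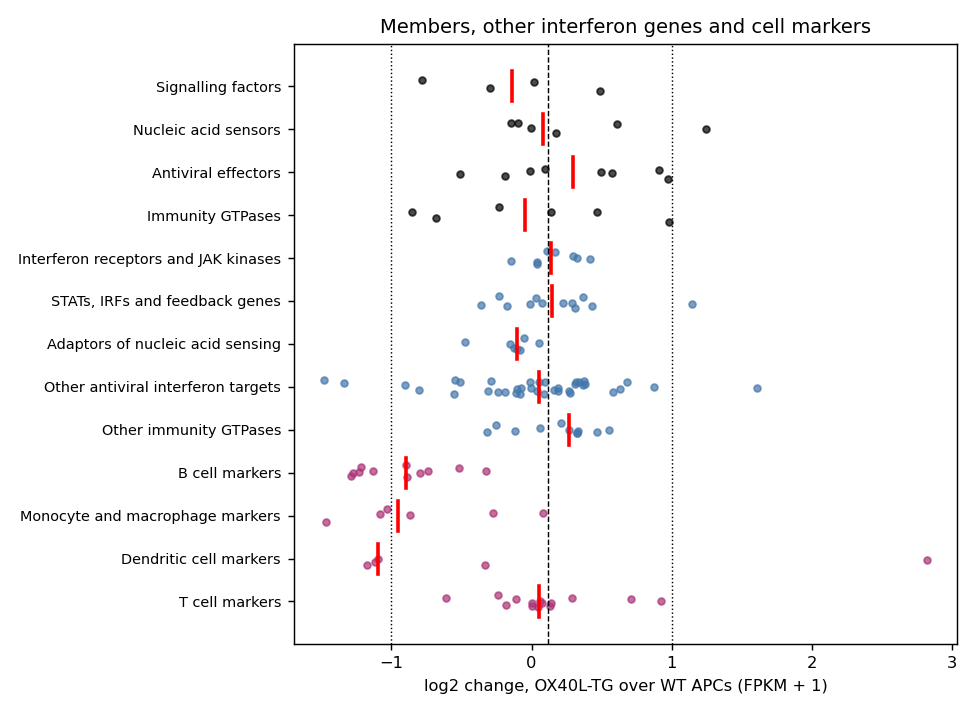
Log2 change (FPKM + 1) of each gene with at least 1 FPKM, by role for the members (black), by list for other interferon genes (blue) and for cell markers (purple), with red bars at the medians, a dashed line at the median of all genes (0.11) and dotted lines at 2-fold. The members spread to both sides of the dashed line, while B cell markers lie at a median of -0.90.

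The changes were also set beside the promoter cores. Over all members with a promoter in the RefSeq table, the 14 with an ISRE core had a median log2 change of 0.13 and the 13 without it one of -0.10. Of those with at least 1 FPKM, the 10 with the core ranged from -0.85 to 0.98 and the 9 without it from -0.78 to 0.49. Isg15, which has the core, is among these through the OX40L-TG-APC library only. The ranges overlap widely, since Gbp3 and Gbp2 have the core and were the lowest of the first set. Of the 8 genes under 1 FPKM with a promoter in the table, 4 had the core. Thus Ifit1, with 2 copies, stood under 1 FPKM, while Igtp, with 1, stood at 46.9 and 93.8 FPKM.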

How the data were processed

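RNA of CD4+ T cells from Th17 cultures was sequenced, with 1 library per group. The authors deposited FPKM values per gene, and a separate table of their comparison with a log2 ratio and a p-value, per the file headers. TopHat2, Cuffdiff and the build mm9 are named in the submitters' processing notes, and versions, gene models and strand handling are not given in the sources used here. The printed coordinates follow GRCm38: the loci of all 35 members overlap their GRCm38 genes, so coordinates are given as GRCm38, with starts counted from 1. Symbols came from the RefSeq GRCm38.p6 gene table, which held 13030 of 13056 Entrez identifiers.

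The members and lists were chosen with earlier results of these data known. Change was log2 of FPKM + 1, which understates the change of low genes, for genes with a larger FPKM of at least 1. Every member is given, with intervals for those of at least 1 FPKM with a ratio of at least 1.5 or among the 3 highest of a role, and for others added after the values were seen. Depth was not stated and was estimated from the steps of low FPKM values (255 genes, of which 71.4% had whole-number ratios within 0.2%, against 6.27% at a shifted ratio), which gave a depth ratio of 1.15. Fragments used the median transcript length. The calculation was tested on simulated data. The simulation used a single library per group and the same transcript lengths as the calculation. It therefore cannot show how the calculation behaves on averaged columns or with other lengths. Analysis used Python 3.11.15, NumPy 2.4.6, pandas 2.3.3, SciPy 1.17.1 and Matplotlib 3.10.9. Alternatives were other pseudocounts, filters, scalings and loci free of other genes. A gene among the other interferon lists is counted in its list but not reported here.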

Additional observations from a re-analysis of the deposited data

How the results depend on the processing

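With 1 library per group, counting error is the only error known, and 12 of the 34 members with a fragment estimate (all but Mx1) had under 50 estimated fragments in the smaller library. With a pseudocount of 0.1 the members called were 2 higher (Oas3 and Dhx58) and 1 lower (Irf7), and with a pseudocount of 5 there were 0 higher. With library totals set equal 1 was lower (Gbp3). Among the 13 members whose printed locus holds no other annotated gene 0 were higher, since Dhx58 overlaps Gm38483. The median log2 change of the members, and of the antiviral genes, was -0.041 with no filter on low values, -0.065 with the median ratio of well-expressed genes set to 1 and -0.11 with totals set equal. For all genes these settings gave 0.08, -0.00089 and -0.05. The antiviral median was -0.0082 in loci with no other gene. The GTPase median was -0.17 with the median ratio set to 1, -0.22 with totals set equal, 0.47 in loci with no other gene and 0.14, in an alternative chosen after seeing the data, in loci with no other protein-coding gene. The last value leaves out Ifi47, and the value of 0.47 leaves out Gbp2, Gbp3 and Ifi47, the GTPases that were lower. Setting the median ratio to 1 turned the sign of Parp14 and Irf9, and equal totals also that of Irgm1. Setting the median ratio to 1 also changed whether 6 of 24 counting intervals included 1. Those of Parp14, Trim25 and Irgm1 went from above 1 to including it. Those of Zbp1, Irf9 and Usp18 went from including 1 to below it. No paired analysis was possible because each group has 1 library. In the deposited FPKM columns, 98.9% and 99.9% of values with 7 significant digits end in 5. If the columns are means of pairs, this would change what a library, its depth and its counting intervals stand for.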
